A study of Mus musculus with 8 samples.

Results

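The genes of the mouse MHC class II pathway, H2-Aa, H2-Ab1, H2-Eb1, H2-DMa, H2-DMb1, H2-DMb2, H2-Oa, H2-Ob and Cd74, were examined in tumor-associated macrophages (TAMs). The class II transactivator Ciita was examined with them. These genes were picked by symbol and are 10 of the 53247 genes listed. TAMs came from tumors of the mouse Lewis lung carcinoma line LLC grown under the skin of WT or miR-21 null (miR-21-/-) C57/BL6 mice for 14 days, from 8 weeks of age to 10 weeks, and there were 4 samples of each genotype, labelled as biological replicates. In miR-21-/- mice every host cell lacks miR-21 from the germ line on, and the implanted LLC cells do not carry this deletion. For replicate 1 of the miR-21-/- group, the label holds a double number that may or may not mean a pool of animals, and it counts as 1 sample here. Replicates carry the biological replicate number that the labels give, and the titles and library names of the miR-21-/- group hold other numbers. Cells of both genotypes had been sorted as CD45+ CD11b+ MHCII+ F4/80+, so that surface MHC II itself was part of the gate, and the levels below describe transcripts within cells already positive for the protein.

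MHC class II molecules present peptides from the endocytic pathway to CD4+ T cells. H2-Aa and H2-Ab1 encode the α and β chains of I-A, and H2-Eb1 encodes the β chain of I-E, whose α chain C57/BL6 mice do not make. Newly made dimers travel with the invariant chain (Cd74), which blocks the groove until proteases trim it, and H2-DM then exchanges the remaining fragment for peptide, while H2-O restrains H2-DM. Ciita does not bind DNA by itself. It docks on factors (RFX, NF-Y and CREB) that sit on the X and Y boxes shared by the promoters of this family, and in macrophages it is induced by IFN-γ through JAK kinases and IRF1.

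The sequence missing in miR-21-/- cells is shown first, since the seed decides which transcripts could pair with it. The mature miRNA (RefSeq, GRCm38.p6, chr11:86584120-86584141, minus strand) has its seed, bases 2 to 8, in capitals.

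mmu-miR-21a-5p: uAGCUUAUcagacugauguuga

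No match to the seed was found in the longest annotated 3′ UTR (GENCODE vM21) of any of the 10 genes. The longest string searched on the transcript strand was ATAAGCTA. Of the strings within it, the search also took ATAAGCT, then the form without the first base, TAAGCTA, and as the shortest TAAGCT. This shortest form was present in the 3′ UTR of 27.51% of 11480 tested genes with an annotated 3′ UTR, and the 7-base ATAAGCT in 8.162%. These 3′ UTRs were short, with a median of 475 bases against 1359.5 bases over tested genes.

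The promoters are shown because the members varied together from sample to sample (below). RefSeq (GRCm38.p6) promoter windows, 250 bases before to 50 bases after a start, were on hand for 7 of the members, all on chromosome 17, with 2 windows for H2-DMa. The letters GNAAC, as in the core of an X box, followed after 20 to 30 bases by ATTGG, the core of a Y box, were found on the gene strand in 5 of these 8 windows, against 0.941% of all 32851 promoter windows. The letters were chosen after these sequences had been seen. GNAAC and ATTGG are in capitals in the stretches from H2-Aa (chr17:34287867-34287908, minus strand), H2-Eb1 (chr17:34305772-34305812, plus strand), H2-DMb1 (chr17:34153093-34153134, plus strand), H2-DMb2 (chr17:34145125-34145163, plus strand), H2-Oa (chr17:34092299-34092340, plus strand) and H2-Ob (chr17:34238814-34238852, plus strand).

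H2-Aa: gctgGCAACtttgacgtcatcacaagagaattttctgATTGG
H2-Eb1: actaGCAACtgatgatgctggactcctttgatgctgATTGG
H2-DMb1: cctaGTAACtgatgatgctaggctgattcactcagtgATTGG
H2-DMb2: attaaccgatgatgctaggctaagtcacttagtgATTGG
H2-Oa: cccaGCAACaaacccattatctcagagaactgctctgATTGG
H2-Ob: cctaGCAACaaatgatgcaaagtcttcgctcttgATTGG

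In these 6 stretches ATTGG began 43 bases (H2-Oa) to 90 bases (H2-DMb2) before the RefSeq start. The H2-DMb2 window held ATTGG without a GNAAC at this distance before it, and its stretch is set beside that of its neighbor H2-DMb1 for comparison. No stretch is shown for H2-DMa, whose windows did not hold the pair of motifs. On either strand and at any distance, ATTGG alone was in 37.4% and GNAAC alone in 84.8% of all windows.

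Values are in CPM, counts per 1e+06 reads of a library. Each library held 20.2 to 33.4 times 1e+06 reads, estimated from the smallest step between values, so that 1 read was worth 0.0300 to 0.0495 CPM. Mir21a, whose mature product is too small for mRNA libraries, was listed at 0.0001 CPM, the lowest value, in 8 of 8 samples, so the table does not check the genotype. The 10 macrophage markers looked up were all present, with a summed level of 8960 to 10053 CPM. Of these, Fcgr1 was called higher in miR-21-/- TAMs (log2 change 0.75), and Adgre1, the gene of the gate marker F4/80 (-0.38), and Csf1r (-0.48) had every miR-21-/- sample below every WT sample without being called. The 6 neutrophil markers summed to 769 to 1168 CPM in WT and 574 to 747 CPM in miR-21-/- samples, with none called. The 8 T and NK cell markers summed to 11.9 to 14.8 and 8.07 to 33.9 CPM, with none called and Cd8a higher in every miR-21-/- sample (1.28). The 8 tumor and stromal markers summed to 195 to 355 and 212 to 296 CPM, with Col1a1 (-2.29) and Pdgfrb (-1.22) called lower. The part of these cells in the results below was not tested. Over 13850 tested genes the median log2 fold change was -0.10, and changes of that size are the general level here. Because these are bulk samples, fewer cells of a type and less RNA per cell cannot be told apart.

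The first question was whether transcripts of the class II pathway differed in TAMs that lack miR-21. None of the 10 members was called between miR-21-/- and WT TAMs, against 7.12% of the tested genes (limma, p of at most 0.005 after Benjamini-Hochberg adjustment, with a fold change above 1.5). At an unadjusted p under 0.05 there were 2 members, H2-Oa and H2-Ob, both lower, against 46.4% of tested genes. The median log2 fold change of the members was -0.13. The CPM values separated for H2-Oa, with every miR-21-/- sample below every WT sample, and the groups of the 9 other members overlapped. Non-overlap in that direction was found for 25.7% of all tested genes.

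**Figure D1:**
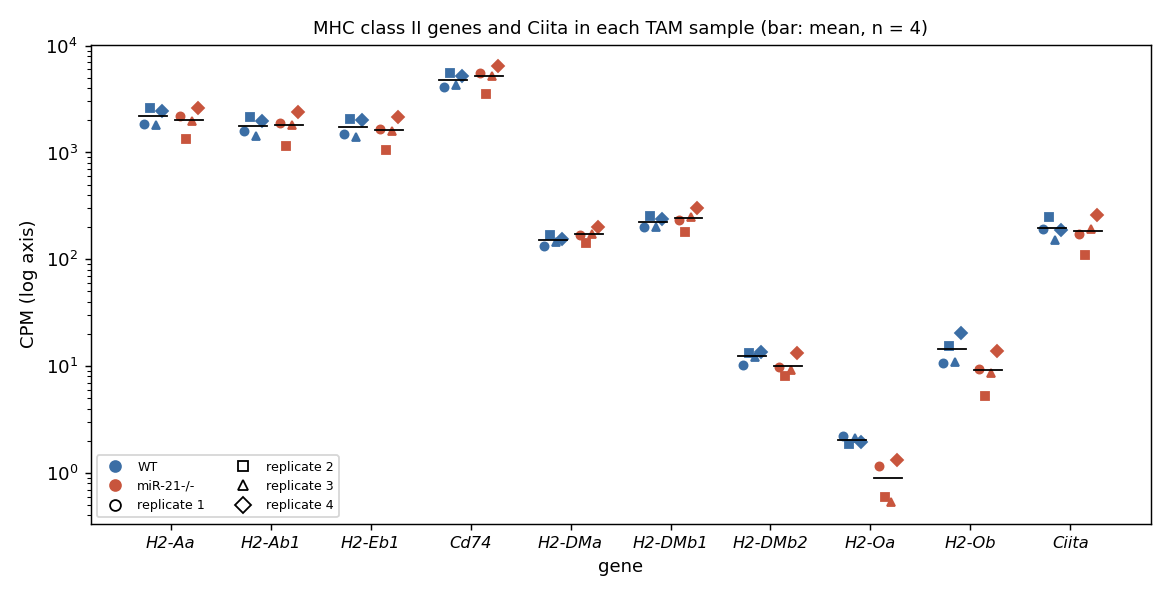
CPM of each member on a log axis in the 4 WT (blue) and 4 miR-21-/- (red) samples, with the replicate given by the symbol and the genotype mean by a bar. Levels run from below 1 CPM for H2-Oa to 6391 CPM for Cd74, and the colors separate for H2-Oa alone.

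The I-A chains were among the most abundant transcripts of these cells and were not called between genotypes. H2-Aa (chr17:34282744-34287827), the α chain, was at 1866, 2625, 1812 and 2439 CPM in WT replicates 1 to 4 and at 2173, 1326, 1988 and 2627 CPM in miR-21-/- replicates 1 to 4. The miR-21-/- samples reached both below and above the WT range. Its log2 fold change was -0.13 (95% interval -0.58 to 0.32, adjusted p = 0.645 from limma). H2-Ab1 (chr17:34263209-34269418), the β chain, was at 1585, 2147, 1416 and 1980 CPM in WT samples and 1905, 1141, 1797 and 2370 CPM in miR-21-/- TAMs. From the lowest to the highest, the 8 samples came in the same order for H2-Ab1 as for H2-Aa. Its log2 fold change was -0.011 (standard error 0.21, interval -0.48 to 0.46, adjusted p = 0.972 from limma). The interval is not a limit of detection. H2-Oa, whose interval of -1.03 to -0.37 leaves out 0, was not called either, so changes beyond the interval of H2-Ab1 could also be missed.

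H2-Eb1 (chr17:34305877-34316199) was expressed like the I-A chains, although its α partner is not made. It was at 1476, 2067, 1386 and 2019 CPM in WT samples and 1649, 1053, 1597 and 2163 CPM in miR-21-/- TAMs, with a log2 change of -0.13 (interval -0.60 to 0.34, adjusted p = 0.669 from limma). The groups again overlapped, and the order of the 8 samples was the same as for the I-A chains, from miR-21-/- replicate 2 to replicate 4. H2-Ea-ps, the α chain pseudogene, had 0 reads in 7 samples, which allows up to 0.0899 to 0.148 CPM per library (3 reads), and 1 read in the eighth. H2-Eb2, a second β chain gene, lay between 0.39 and 1.04 CPM and did not pass the filter of a mean of 1 in 1e+06.

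Cd74, the invariant chain, ranked 3 to 9 among all listed genes. It was at 4132, 5591, 4235 and 5161 CPM in WT samples and 5581, 3554, 5144 and 6391 CPM in miR-21-/- TAMs. The genotypes overlapped, and the sample with the most Cd74 was also the one with the most H2-Ab1. The log2 fold change was 0.092 (interval -0.32 to 0.50, adjusted p = 0.727 from limma). The gene lies at chr18:60803848-60812646, away from the class II locus.

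The H2-DM peptide exchange genes were not called between genotypes either. H2-DMa (chr17:34135182-34139101), the α chain, was at 134, 167, 146 and 155 CPM in WT samples and 169, 142, 173 and 199.9 CPM in miR-21-/- TAMs. H2-DMb1 (chr17:34153072-34160230), the main β chain, was at 202, 254, 201 and 239 CPM in WT samples and 232, 179.8, 251 and 302 CPM in miR-21-/- TAMs. For H2-DMa, miR-21-/- replicates 1, 3 and 4 lay above every WT sample, and for H2-DMb1 replicate 4 alone did, so neither separated. Their log2 fold changes were 0.18 for H2-DMa (interval -0.047 to 0.40, adjusted p = 0.195 from limma) and 0.090 for H2-DMb1 (interval -0.23 to 0.41, adjusted p = 0.651 from limma).

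H2-DMb2 (chr17:34143307-34151553), the other β chain gene, was at 10.3, 13.3, 12.3 and 13.7 CPM in WT samples and 9.89, 8.10, 9.13 and 13.2 CPM in miR-21-/- samples. Of the latter, replicates 1 to 3 lay below the whole WT range and replicate 4 inside it. The log2 fold change was -0.28 (interval -0.59 to 0.025, adjusted p = 0.135 from limma). This level is uncertain, because 21.19% of the 50-base words of H2-DMb2 transcripts also occur in H2-DMb1. Its values came to a whole number of reads (within 0.1) in 1 of 8 samples, whereas those of H2-Oa and H2-Ob were whole in 8 of 8.

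The H2-O genes, which encode the restraint on H2-DM, had the lowest fold changes of the members on the log2(CPM + 1) scale. H2-Oa (chr17:34092340-34095234), the α chain, was at 2.24, 1.87, 2.13 and 1.95 CPM in WT samples and 1.16, 0.600, 0.538 and 1.32 CPM in miR-21-/- TAMs, from 43 to 67 reads and from 14 to 40 reads. The lowest WT sample lay above the highest miR-21-/- sample. The log2 fold change was -0.70 (standard error 0.15, interval -1.03 to -0.37) on this scale, which understates changes of low genes. Adding 0.1 in place of 1 gave -1.18, and adding 10 gave -0.14, at which setting H2-DMb2 was lower at -0.16. The adjusted p of 0.00543 from limma missed the limit of 0.005. H2-Oa passed both limits when samples were weighted by their fit (adjusted p = 0.00494 from limma) and without miR-21-/- replicate 4 (adjusted p = 0.00375 from limma), within a range over the alternatives of 0.00375 to 0.0250.

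H2-Ob (chr17:34238903-34245907), the β chain, was at 10.6, 15.5, 10.9 and 20.3 CPM in WT samples and 9.33, 5.28, 8.72 and 13.7 CPM in miR-21-/- samples. Of the latter, 3 lay below all WT samples and replicate 4 lay among them. The log2 fold change was -0.60 (interval -1.17 to -0.023), with an adjusted p of 0.0959 from limma that missed the limit, and the fold change was -0.38 without miR-21-/- replicate 2. H2-Ob also had the widest spread of the members, with a within-genotype SD of 0.46 on the log2 scale.

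Ciita, the class II transactivator, lies at chr16:10488178-10527564. It was at 192, 248, 152 and 189 CPM in WT samples and 172, 109, 190.3 and 258 CPM in miR-21-/- TAMs. As for the I-A chains, miR-21-/- replicate 2 was the lowest and replicate 4 the highest of the 8 samples. The log2 fold change was -0.14 (interval -0.65 to 0.37, adjusted p = 0.659 from limma), and it turned to 0.080 without miR-21-/- replicate 2.

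Per length of the principal transcript, Cd74 was the most abundant member, with 3390 ± 505 CPM per kb in WT and 3665 ± 846 CPM per kb in miR-21-/- samples (SD, n = 4 each). In both genotypes the order was Cd74, H2-Aa, H2-Ab1, H2-Eb1, H2-DMb1, H2-DMa, Ciita, H2-DMb2, H2-Ob and H2-Oa. The order of the I-A and I-E chains and their levels depend on the length used. Per length of all annotated exons of a gene merged, H2-Eb1 (893 CPM per kb in WT) came before H2-Ab1 (694) and H2-Aa (575) in both genotypes, and the other ranks were the same. Per principal transcript, the WT ranges of H2-Aa, H2-Ab1 and H2-Eb1 overlapped between neighbors, as did those of H2-DMb2 and H2-Ob, and the other neighbors were apart. The levels spanned from 1937 ± 362 CPM per kb for H2-Aa over 159 ± 18.9 for H2-DMb1 and 32.5 ± 6.62 for Ciita to 1.88 ± 0.154 CPM per kb for H2-Oa in WT TAMs. Per length, transcripts of H2-Oa and H2-Ob were thus far less abundant than those of H2-DMa and H2-DMb1, with no overlap of the ranges in WT samples. The 10 genes held 0.931% of the listed CPM in miR-21-/- replicate 2 and 1.78% in miR-21-/- replicate 4, with the WT samples in between.

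The members varied between samples of one genotype more than most genes. The within-genotype SD on the log2(CPM + 1) scale had a median of 0.324 over the members and 0.129 over all tested genes. H2-Ab1 and H2-Eb1 each had an SD of 0.37, at or above that of 95.9% of tested genes. H2-DMa, with 0.17, varied least. This spread is what the wide intervals above rest on, and it made calls harder to reach than for most genes.

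The spread was shared. In miR-21-/- replicate 4 the value was the highest of the genotype for 10 of 10 members, and in replicate 2 it was the lowest for 9 of 10, the exception being H2-Oa, which was lowest in replicate 3. On average the members lay 0.41 above the genotype mean in replicate 4 and -0.47 from it in replicate 2 (log2 scale), while the median over all tested genes was 0.0074 and 0.016 there. Among WT samples, replicate 2 was the highest for 7 members, and replicates 1 and 3 lay below the genotype mean for 9 members each. H2-Oa went against this order in WT. Replicates of a genotype have no order, and the labels name no batch.

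**Figure D2:**
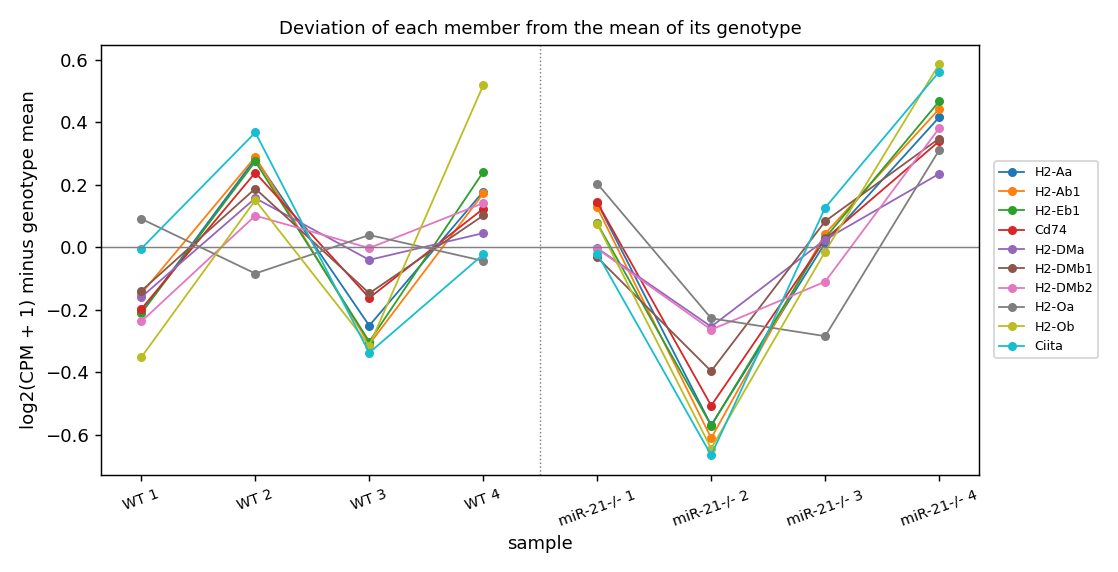
Difference of log2(CPM + 1) from the genotype mean for each member in each sample, with the WT samples left and the miR-21-/- samples right of the dotted line. Lines only join the values of a gene. Among the miR-21-/- samples, all members peak in replicate 4 and all lie below the genotype mean in replicate 2.

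The genes whose profile over the 8 samples lay closest to the mean centered profile of H2-Aa, H2-Ab1, H2-Eb1 and Cd74 were low-level transcripts. The measure was the root mean square difference on the log2(CPM + 1) scale, with a median over tested genes of 0.344, and the members themselves were left out. Arsi, an arylsulfatase gene, was the closest with 0.138, at 1.41 to 3.39 CPM. Ankrd23, an ankyrin repeat gene, followed with 0.147, and Gm38043, B130055M24Rik and A730081D07Rik had 0.162 to 0.169. Ciita was as close as these, with 0.147, H2-DMb1 was closer at 0.124, and H2-Oa was the most distant member at 0.423.

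Ratios of members within a sample leave out shared variation only as far as it has the same size in both genes. The size differed, with a within-genotype SD of 0.17 for H2-DMa and 0.37 for H2-Ab1, so a part can remain. The differences tested were of log2(CPM + 1), so for low genes such as H2-Oa they still depend on the pseudocount. Of 6 ratios computed, 4 separated the genotypes, each with p = 0.0286 by an exact two-sided permutation test, the smallest p that 4 against 4 samples allow, and an adjusted p of 0.0429 over the 6. Leaving out 1 sample gave adjusted p values of 0.0429 to 0.0857 for these 4 (exact permutation test), and all 4 missed the limit of 0.05 without WT replicate 4 and after removal of any single miR-21-/- sample.

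H2-Aa over H2-Ab1, α over β chain of I-A, was 1.18, 1.22, 1.28 and 1.23 in WT and 1.14, 1.16, 1.11 and 1.11 in miR-21-/- TAMs. All miR-21-/- samples lay below all WT samples, by a small step, a mean log2 difference of -0.12. H2-Eb1 over H2-Ab1 was 0.931, 0.963, 0.979 and 1.02 in WT and 0.866, 0.922, 0.889 and 0.912 in miR-21-/- TAMs, a mean log2 difference of -0.12. Against H2-Ab1, the groups of 3.62% of all tested genes did not overlap. The spread of H2-Ab1 (SD 0.37) enters the ratio of any gene that does not vary with it. This share is therefore no chance level for members. In plain CPM the groups did not overlap for 1307 genes (higher) and 3556 genes (lower) of 13850 tested. The H2-Ab1 transcript is the denominator in both ratios, so that they are not independent of each other.

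Of the H2-DM and H2-O genes, H2-DMb2 over H2-DMb1 was 0.0509, 0.0523, 0.0612 and 0.0573 in WT and 0.0427, 0.0451, 0.0363 and 0.0438 in miR-21-/- TAMs. The groups were apart, with a mean log2 difference of -0.37 that is subject to the uncertainty of H2-DMb2 given above. Against H2-DMb1, 10.2% of tested genes were apart, which is likewise no chance level for members. The ratio of the H2-O pair to H2-DMa and H2-DMb1 (geometric means of CPM) was 0.0297, 0.0261, 0.0282 and 0.0327 in WT and 0.0166, 0.0111, 0.0104 and 0.0173 in miR-21-/- TAMs. This was the largest difference of the 6, with a mean log2 difference of -0.78 on the log2(CPM + 1) scale and no overlap between genotypes. Adding 0.1 to the CPM gave -1.05, and adding 10 gave -0.37. Of all tested genes, 16.8% were apart against the same H2-DM pair, again no chance level for members.

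Cd74 over the mean of H2-Aa, H2-Ab1 and H2-Eb1 was 2.53, 2.47, 2.77 and 2.42 in WT and 2.94, 3.04, 2.88 and 2.69 in miR-21-/- TAMs. WT replicate 3 lay above miR-21-/- replicate 4, and the log2 difference of 0.18 missed the limit (p = 0.0571, adjusted p = 0.0686, exact permutation test). Ciita over the same mean was 0.0886 to 0.117 in WT and 0.0906 to 0.108 in miR-21-/- TAMs, with a log2 difference of -0.052 (p = 0.629, exact permutation test).

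**Figure D3:**
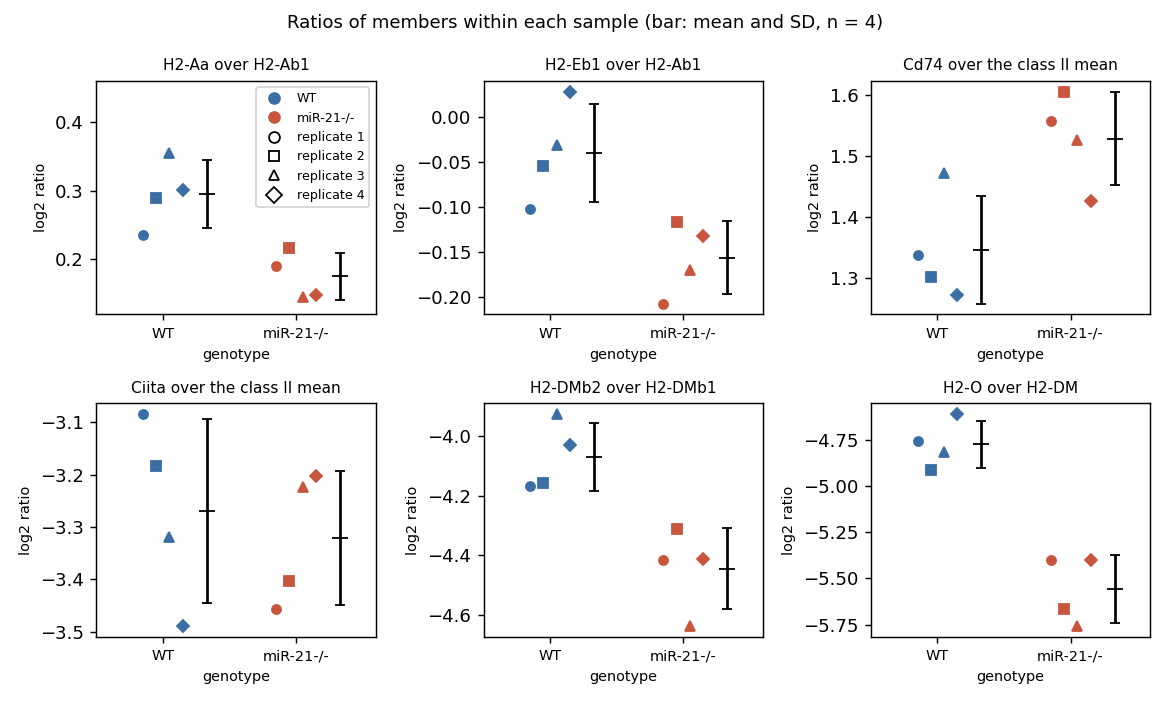
Log2 ratio of members within each sample, computed from log2(CPM + 1), by genotype, with symbols for replicates and the mean and SD (n = 4) as a bar. "Class II mean" is the mean of H2-Aa, H2-Ab1 and H2-Eb1, and H2-O over H2-DM shows the widest gap, -0.78 on average.

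Genes that act on class II were taken from lists of the locus, the promoter factors, invariant chain and peptide processing, surface turnover, and induction and silencing of Ciita. Of their 34 genes, 31 were tested, and 4 were called higher and 3 lower in miR-21-/- TAMs, against 2.89% and 4.23% of all tested genes. The median log2 fold change of the 31 was -0.064. The called genes belong to processing, induction and silencing. In the locus list, Btnl2, a butyrophilin-like gene beside the class II genes, was the only gene tested and had a log2 change of -0.043 (adjusted p = 0.735 from limma).

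The promoter factors were not called, with log2 fold changes from -0.39 for Rfxank, an RFX subunit (adjusted p = 0.0655 from limma), to 0.17 for Nfyb, an NF-Y subunit (adjusted p = 0.0620 from limma). Without single samples Rfxank ranged from -0.49 to -0.25, the smallest change being without WT replicate 2. Of 7 factors, 6 had negative values, as had 9250 of 13850 tested genes. Nfya, the NF-Y subunit that contacts the Y box, was at 75.1 ± 5.29 CPM in WT samples and 60.8 ± 2.84 CPM in miR-21-/- samples (SD, n = 4 each). Its log2 fold change of -0.30 passed the limit on p (adjusted p = 0.00498 from limma) but not that on fold change.

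Of the processing genes, Ctss, the cathepsin that trims the invariant chain in macrophages and dendritic cells, rose. It was at 1227, 1202, 1243 and 1362 CPM in WT samples and 2005, 2008, 1885 and 1976 CPM in miR-21-/- TAMs. The groups did not overlap, with a log2 change of 0.65 (standard error 0.07) and an adjusted p of 0.000192 from limma, although after quantile normalization it was 0.51 and below the fold limit. Sppl2a, the protease that removes the last membrane stub of the invariant chain, went from 226 ± 4.23 CPM to 315 ± 8.87 CPM, and its log2 change of 0.48 (adjusted p = 9.45e-05 from limma) did not reach the fold limit. Lgmn, asparagine endopeptidase, had the lowest value of this list, -0.16 (adjusted p = 0.136 from limma). Of the 7 genes of this list 1 was called.

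Of the surface turnover genes none was called. March1, the ubiquitin ligase that sends surface class II to lysosomes, was at 129 ± 16.6 CPM in WT samples and 186 ± 17.9 CPM in miR-21-/- TAMs, with a log2 change of 0.53 (adjusted p = 0.00304 from limma) below the fold limit. After rescaling by the median of ratios it was 0.64 and passed. Cd83, which counteracts March1, had a log2 change of -0.40 (adjusted p = 0.220 from limma). This change was -0.67 without WT replicate 1 (adjusted p = 0.0118 from limma) and -0.26 without miR-21-/- replicate 2.

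The induction list moved in both directions while Ciita itself did not pass. Irf1, which binds the IFN-γ-responsive Ciita promoter, was at 111, 103, 126 and 144 CPM in WT samples and 447, 376, 327 and 353 CPM in miR-21-/- TAMs. The groups did not overlap, and Irf1 rose, with a log2 change of 1.63 (adjusted p = 1.61e-05, limma). Of the miR-21-/- samples, replicate 3 was the lowest, not replicate 2 as for most class II genes. Ifngr1, the ligand-binding chain of the IFN-γ receptor, fell from 256 ± 26.6 to 154 ± 11.3 CPM (log2 fold change -0.72, adjusted p = 0.000195 from limma). Ifngr2 and Jak2, the other receptor chain and its kinase, had values of -0.46 and 0.47 that passed the limit on p but not on fold change.

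In the silencing list, Socs1, an inhibitor of JAK signaling, went up from 5.18 ± 1.09 CPM to 26.2 ± 5.36 CPM, with a log2 change of 2.14 (adjusted p = 1.66e-05 from limma). Both chains of the receptor for TGF-β, which lowers Ciita, fell. Tgfbr1 was at 71.9 ± 7.02 CPM in WT samples and 31.5 ± 3.15 CPM in miR-21-/- TAMs (log2 fold change -1.17, adjusted p = 1.77e-05 from limma), and Tgfbr2 at 245 ± 28.3 and 141 ± 8.17 CPM (-0.79, adjusted p = 0.000133 from limma). Il10, Il10ra and Prdm1, the gene of the Ciita repressor Blimp-1, were not called.

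**Figure D4:**
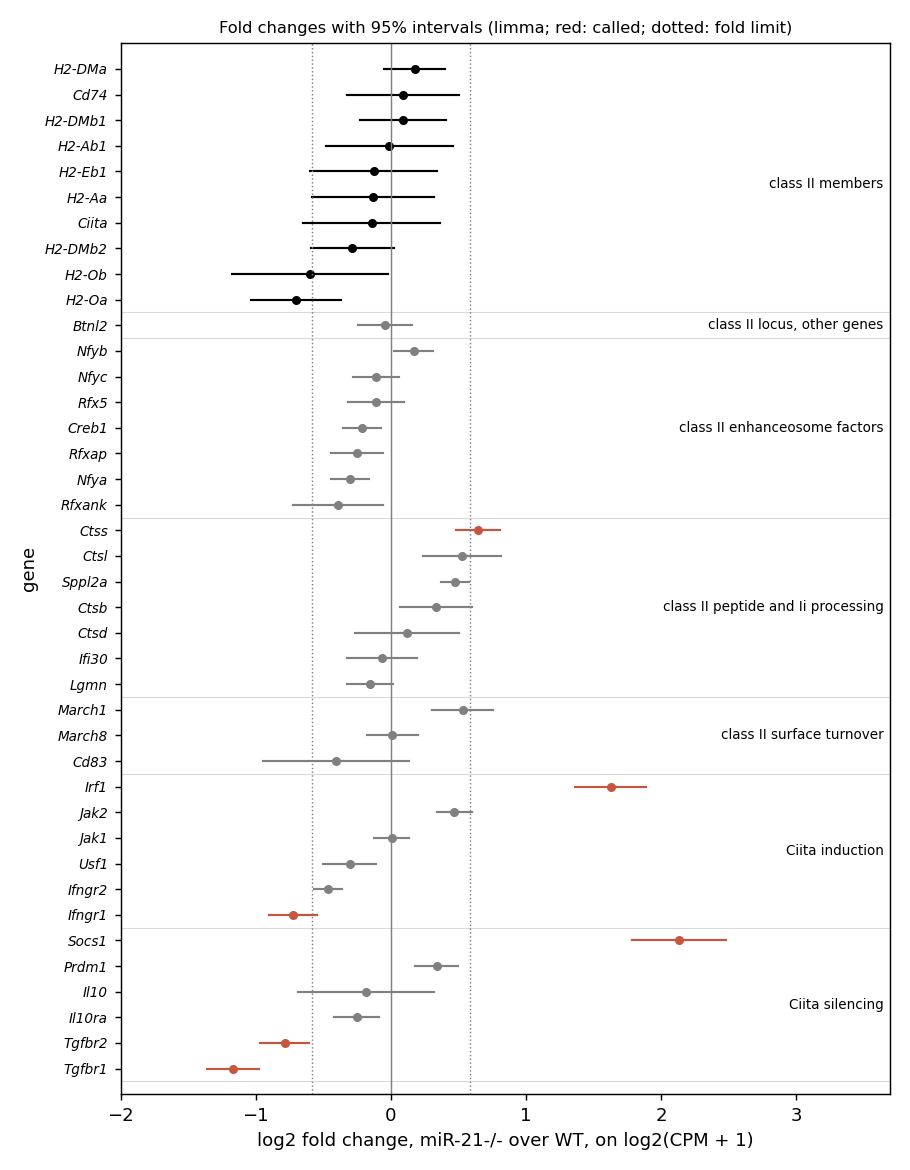
Log2 fold change, miR-21-/- over WT, with its 95% interval from limma for the 10 members (black) and for the tested genes of the other lists that are reported here (grey), with called genes in red and the fold limit of 1.5 dotted. The members lie between -0.70 and 0.18 without a call, and 6 of the other genes shown are red, from Tgfbr1 at -1.17 to Socs1 at 2.14.

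Of markers of other cells that carry class II, 2 of 8 B cell markers and 2 of 10 dendritic cell markers were called lower. None of either list was called higher. Over all tested genes 4.23% were called lower. Cd79b, of the B cell receptor, was at 8.89, 13.3, 13.1 and 15.6 CPM in WT samples and 5.67, 3.03, 3.57 and 3.84 CPM in miR-21-/- samples. Ighm, the μ heavy chain, was at 46.2, 58.9, 42.4 and 81.1 CPM in WT samples and 13.4, 14.5, 10.5 and 11.0 CPM in miR-21-/- TAMs. Both fell (adjusted p = 0.000375 for Cd79b and 5.02e-05 for Ighm, from limma), as H2-Oa and H2-Ob, genes known from B cells and dendritic cells, had lower means in miR-21-/- samples. Within a genotype the order was shared only in part. WT replicate 4 was highest for H2-Ob, Cd79b and Ighm, whereas H2-Oa was highest in WT replicate 1, where Cd79b was lowest. Among miR-21-/- samples H2-Oa and H2-Ob peaked in replicate 4, Cd79b in replicate 1, and Ighm in replicate 2, where H2-Ob was lowest. The 8 B cell markers summed to 58.5 to 98.8 CPM in WT samples and 15.7 to 26.5 CPM in miR-21-/- TAMs, and 2 of the 8 passed the filter. These 2, Cd79b and Ighm, carried most of the sum, and the groups of the other 6 markers overlapped. The defining marker Ms4a1 lay between 0.269 and 1.27 CPM, highest in miR-21-/- replicate 1, without separation between genotypes. Their part in the H2-O values was not tested.

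Of the 10 dendritic cell markers, 8 had negative log2 fold changes, against 9250 of 13850 tested genes, with a median of -0.35 over the list. The other 2, Xcr1 and Clec9a, had positive ones, neither of them called. Xcr1 was at 3.04, 1.73, 2.33 and 7.05 CPM in WT samples and 3.32, 4.35, 10.1 and 20.7 CPM in miR-21-/- TAMs. Clec9a was at 2.30, 2.65, 2.47 and 2.74 CPM in WT samples and 4.18, 5.84, 8.71 and 14.0 CPM in miR-21-/- TAMs. Both mark cross-presenting dendritic cells and were highest in miR-21-/- replicate 4, the sample in which all members were highest within the genotype, but neither was the lowest of its genotype in replicate 2. Dpp4 and Kmo were called lower. Cd209a, the lowest of the list, was at 1.77, 1.94, 5.79 and 0.996 CPM in WT samples and 1.16, 0.120, 0.0768 and 0.232 CPM in miR-21-/- TAMs, with a log2 change of -1.28 that was not called (adjusted p = 0.0187 from limma). Flt3 and Zbtb46, which define dendritic cells, lay between 0.496 and 2.52 CPM in all samples, with log2 changes of -0.50 and -0.41 that were not called. The 10 markers summed to 42.4 to 48.1 CPM in WT samples and to 27.5 to 55.6 CPM in miR-21-/- TAMs, with replicate 2 the lowest and replicate 4 the highest. Their part in the spread of the class II genes was not tested. In the fit without miR-21-/- replicate 4, the members' log2 fold changes ran from -0.80 for H2-Oa to 0.10 for H2-DMa.

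**Figure D5:**
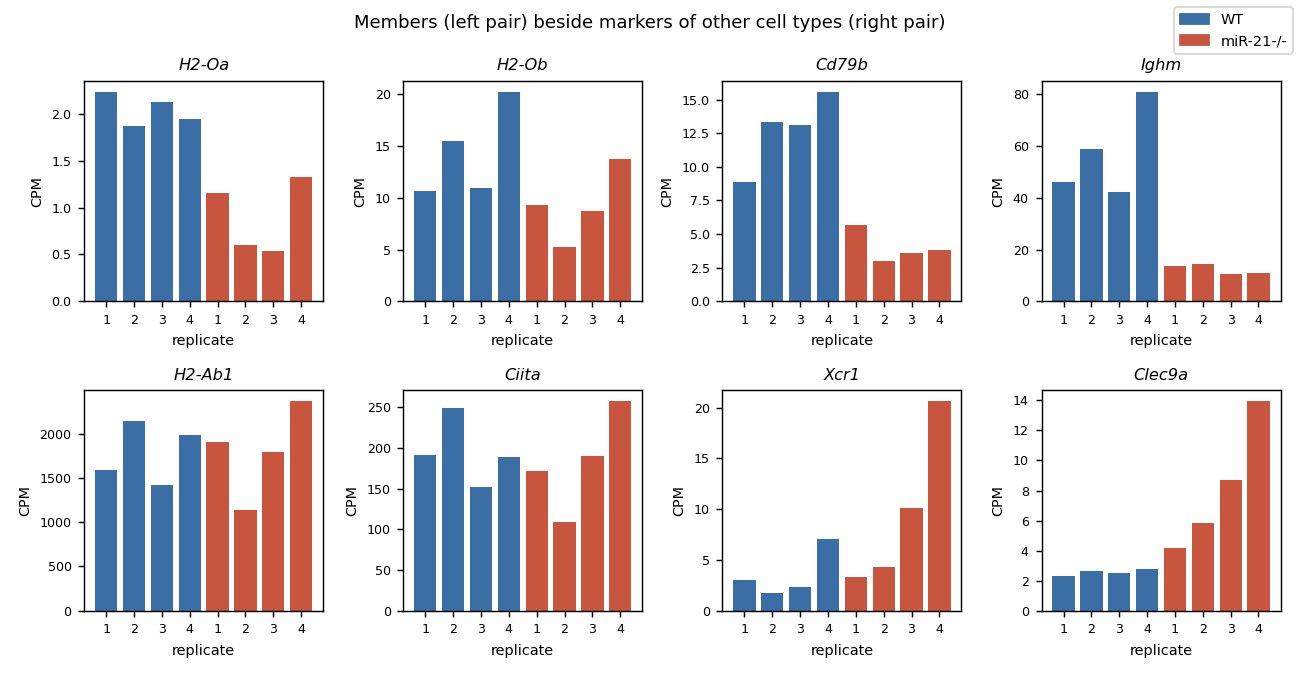
CPM by sample, WT in blue and miR-21-/- in red. The upper row sets H2-Oa and H2-Ob beside the B cell genes Cd79b and Ighm, the lower row H2-Ab1 and Ciita beside the dendritic cell genes Xcr1 and Clec9a, which peak in miR-21-/- replicate 4 at 20.7 and 14.0 CPM.

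The position of each member relative to the mean of H2-Aa, H2-Ab1 and H2-Eb1 in the same sample, a measure added after the data had been seen, was apart between genotypes for 2 of 10 members, against 3.75% of tested genes. H2-Ob was lower, with a log2 difference of -0.51 and values of -7.14, -7.10, -7.00 and -6.65 in WT samples and -7.52, -7.54, -7.52 and -7.34 in miR-21-/- TAMs. Among the miR-21-/- samples, replicate 4 was still the highest on this scale and the other three lay close together. H2-Ab1, itself 1 of the 3 genes in the mean, was higher by 0.079. As for the ratios, the share of 3.75% is no chance level for members.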

How the data were processed

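Total RNA of sorted TAMs was made into mRNA libraries. The authors deposited 1 table of CPM, with 0.0001 added to each value. Their processing notes name STAR, Partek 7.0 and mm10 without their roles, and strand is not given in the sources used here. Deposited ends lie 1 base past those of GENCODE vM21 for 98.9% of genes with the same start, so the base before is printed. The 0.0001 was subtracted, and log2(CPM + 1) was fitted with limma 3.58.1 in R 4.3.3 (eBayes, intensity trend), for the 13850 genes whose mean reached 1 in 1e+06 of the column totals, which all 10 members did. The limits of 0.005 on adjusted p and 1.5 on fold change are those of the study. The members and lists were chosen with earlier results of these data known. Named were all members, the called, highest and lowest genes of each list and the 5 nearest profiles. Other genes were named after their values were seen. A few list genes enter the counts and sums but are not reported here by name or in plots.

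Depth was 20.2 to 33.4 times 1e+06 reads per sample, read from the steps of low values. Of these, 75.8% to 77.2% were whole reads within 0.1, so whole counts were not recovered and no count test was run. Read floors cover counting error only. Genes that overlap or share sequence with others are uncertain. Alternatives were other pseudocounts, filters, scalings and weights, no trend, a replicate block and leaving out each sample.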

Additional observations from a re-analysis of the deposited data

How the results depend on the processing

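The number of genes called, 986, was 452 with a pseudocount of 10 and 515 without a filter on low values. The split of 400 higher and 586 lower became 520 and 350 after rescaling by the median of ratios and 491 and 337 after quantile normalization, which moved the median log2 fold change from -0.10 to -0.0030 and -0.0076, so small negative values of members are relative to that shift. Without WT replicate 2 the calls fell to 685, with 314 higher and 371 lower. Leaving out single samples gave 685 to 1001 calls, with 314 to 387 higher and 371 to 614 lower. The count of members called was 0 in the analysis reported and under 15 of the 17 alternatives, of which the filter at a mean of 5 left H2-Oa untested, and 1, H2-Oa, with sample weights (log2 fold change -0.73) and without miR-21-/- replicate 4, so leaving out single samples gave 0 to 1. H2-Oa ranged from -0.80 to -0.60 when single samples were left out, and from -1.18 with a pseudocount of 0.1 to -0.14 with 10. The sign of members near 0 was not stable. H2-Ab1 was 0.10 after rescaling by the median of ratios and Cd74 -0.0026 after quantile normalization. Without single samples H2-Aa ranged from -0.27 to 0.059, H2-Ab1 from -0.16 to 0.19, H2-Eb1 from -0.28 to 0.063, H2-DMb1 from -0.025 to 0.22, Cd74 from -0.021 to 0.26, H2-DMa from 0.10 to 0.26, H2-DMb2 from -0.41 to -0.20, H2-Ob from -0.79 to -0.38 and Ciita from -0.33 to 0.080. Btnl2 turned to 0.12 after quantile normalization and 0.042 after rescaling by the median of ratios. Under the same 2 settings Lgmn was -0.31 and -0.043, and Rfxank -0.24 and -0.29. With a pseudocount of 10 the ratios H2-Aa over H2-Ab1 (-0.12), H2-Eb1 over H2-Ab1 (-0.12), H2-DMb2 over H2-DMb1 (-0.25) and H2-O over H2-DM (-0.37) no longer passed (adjusted p 0.0571 to 0.103, exact permutation test). Without single samples they ranged from -0.14 to -0.10, from -0.14 to -0.094, from -0.42 to -0.31 and from -0.84 to -0.72, and Ciita over the class II mean from -0.13 to 0.0094. With 3 against 4 samples the smallest possible p is 0.0286. The causes were not tested.

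Between samples with the same biological replicate number, deviations had r of -0.14 to 0.22 across 13850 genes, which are not independent replicates. The highest r of all pairings, 0.22, was that of WT replicate 4 and miR-21-/- replicate 4. Deviations were taken from the genotype mean, so the r values cannot all be positive. The check therefore cannot show whether such samples share more than a number. The titles and library names number the miR-21-/- group otherwise, and by them WT replicates 3 and 4 match miR-21-/- replicates 2 and 3 (r of 0.14 and 0.032). No block was fitted on the titles. With a replicate block 922 genes and 0 members were called, and the 4 ratios, with unchanged differences of -0.12, -0.12, -0.37 and -0.78, had an exact p of 0.125, the smallest that 4 pairs allow, and an adjusted p of 0.15. Depth limits H2-Oa most, with 14 to 67 reads per sample.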
